A study of Mus musculus with 6 samples.

Results

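The Krüppel-like factors (KLF) are transcription factors named after the Drosophila segmentation gene Krüppel, and 10 of their genes were followed in mouse osteoblasts treated with corticosterone: Klf2, Klf3, Klf4, Klf5, Klf6, Klf7, Klf9, Klf10, Klf13 and Klf15. The genes were chosen by name, by matching the Ensembl gene identifiers of the deposited table to these symbols, and all 10 were found among the 24016 genes of the table. The cells were MC3T3-E1 subclone 4, a clonal preosteoblast line from mouse calvaria of wild-type genotype. To differentiate, they spent 6 days in β-glycerophosphate (10 mM) with ascorbic acid (50 µg/ml). Then 3 cultures received vehicle and 3 received 100 nM corticosterone, the main glucocorticoid of rodents, for 24 h. The protocol that the labels give for all 6 libraries includes 10 nM calcitriol, the active form of vitamin D. It does not name the vehicle or say whether the vehicle cultures also received calcitriol. The series calls the libraries biological replicates, but they come from 1 cell line and the labels do not say whether the cultures were started separately. The p-values therefore rest on the spread between these libraries, for each gene and, in part, for genes of similar level.

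KLF proteins bind GC-rich and CACCC sequences through zinc fingers at their C-terminal end, close in sequence to those of the SP factors, and their N-terminal parts recruit different partners. KLF3 and its close relatives bind the corepressor CtBP. KLF9, KLF10 and KLF13 bind the corepressor Sin3A. KLF2, KLF4, KLF5, KLF6 and KLF7 act mainly as activators, although KLF4 also represses. Klf9 and Klf15 are known targets of the glucocorticoid receptor in several tissues, and Klf10 was first found in osteoblasts as an early gene of the transforming growth factor β response.

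The sequences before the RefSeq start sites of Klf9, Klf7, Klf4 and Klf2 are shown because the first 3 of these genes changed in different directions and Klf2 carried a MEF2 motif. They are taken from RefSeq promoter records on GRCm38.p6, of which 8 of the 10 genes had one (not Klf5 and Klf10). Each is written 5′ to 3′ on the strand of its gene, without bases that the annotation puts in an exon. Capitals mark the CACCC box, written CACCC or GGGTG on the other strand, and the MEF2 motif CTANNNNTAG. The Klf9 stretch is chr19:23140976-23141225 on the plus strand. The Klf7 stretch is chr1:64121492-64121639 on the minus strand. It lies inside the annotated gene, chr1:64029447-64122282, so it is not sequence before the annotated start of Klf7. The Klf4 stretch is chr4:55532476-55532725 on the minus strand. The Klf2 stretch is chr8:72318812-72319032 on the plus strand.
Klf9: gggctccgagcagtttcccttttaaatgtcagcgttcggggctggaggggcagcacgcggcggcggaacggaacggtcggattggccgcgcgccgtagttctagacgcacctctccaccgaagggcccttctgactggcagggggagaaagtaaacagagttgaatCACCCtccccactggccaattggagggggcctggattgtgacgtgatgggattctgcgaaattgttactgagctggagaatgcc
Klf7: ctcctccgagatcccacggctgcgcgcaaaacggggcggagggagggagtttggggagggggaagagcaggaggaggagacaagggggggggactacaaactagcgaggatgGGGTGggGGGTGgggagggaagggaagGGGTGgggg
Klf4: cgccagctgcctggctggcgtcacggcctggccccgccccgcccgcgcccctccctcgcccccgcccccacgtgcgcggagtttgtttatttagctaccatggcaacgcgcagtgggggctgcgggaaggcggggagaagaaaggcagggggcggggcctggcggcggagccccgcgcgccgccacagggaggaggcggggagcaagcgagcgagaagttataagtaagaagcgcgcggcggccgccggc
Klf2: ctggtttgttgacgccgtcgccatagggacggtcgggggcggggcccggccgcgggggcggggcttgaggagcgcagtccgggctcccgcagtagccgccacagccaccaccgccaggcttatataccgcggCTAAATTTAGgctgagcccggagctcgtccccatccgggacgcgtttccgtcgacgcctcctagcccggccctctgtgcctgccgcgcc

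Each motif was searched on both strands in the window of 250 bases before the RefSeq start, which is not always the annotated gene start. The windows of Klf2, Klf3 and Klf6 ran past the annotated start, and that of Klf7 lay inside the annotated gene. Klf9 held 1 CACCC box, 84 bases before the start. Klf7 held 3 of them, beginning 138, 131 and 111 bases before the start. Klf4 held none. Klf2 had 1 at 19 bases before the RefSeq start, in an annotated exon beyond the stretch shown, and the MEF2 motif at 118 bases. A CACCC box was found in 6 of the 8 KLF windows and in 52% of all 32851 RefSeq windows. The GC box GGGCGG, which can share a base with a CACCC box, was found in 7 of 8 KLF windows, all but that of Klf9, and in 32.7% of all windows. The E-box CACGTG was present before Klf4, Klf6 and Klf15, 3 of 8, against 6.02% of all windows. The MEF2 motif was found before Klf2 only among the 8, and in 3.2% of all windows. The glucocorticoid response element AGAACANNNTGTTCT was in none of the 8 windows and in 0.00913% of all windows. Its half-site AGAACA was in none of the 8 and in 16.1% of all, the TATA box TATAAA in none and in 12.4%, and the cAMP response element TGACGTCA in none and in 1.55%. These matches describe letters in short windows and are not measured binding sites. The GC content was 59.6% before Klf9, 59.2% before Klf7, 74.0% before Klf4 and 71.2% before Klf2, with a median of 52.4% over all windows. Over the 8 KLF windows it ran from 59.2% (Klf7) to 78.4% (Klf3), all above that median. The shares over all windows are thus not a matched background, and the motif counts are not themselves a result about the family.

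The values below are normalized counts, meaning the reads counted on a gene divided by 1 size factor per library. Between 19076586 and 25638645 reads were counted on genes per vehicle library (median 24337786). Per corticosterone library they were between 16020401 and 18992332 (median 18259063). Every vehicle library was thus deeper than every corticosterone library, and the part of depth in the differences below was not tested. The floor was set at 3 reads, equal to a normalized count of 2.32 in the deepest and 3.84 in the shallowest library, and covers counting error only. A gene was called when its limma adjusted p was under 0.05 after Benjamini-Hochberg adjustment over all 24016 genes. All 4 genes of a glucocorticoid response check, Tsc22d3, Fkbp5, Sgk1 and Per1, rose, with log2 fold changes from 1.49 to 2.75. All 9 osteoblast markers were detected, of which Spp1 rose and 8 fell. The summed normalized count of the 2 adipocyte markers measured, of 5 in the list, was 7.72 to 21.1 with vehicle and 108 to 133 with corticosterone. It was nearly all Fabp4, while Plin1 was at 0 in 5 of the 6 libraries, with 2 reads in the other. Summed markers of muscle (3 of 5 measured) were 16.2 to 23.9 and 22.1 to 23.6, of endothelium (3 of 5) 0 to 12.97 and 2.21 to 14.1, of macrophages (3 of 5) 125 to 151 and 127 to 145, and of chondrocytes (4 of 5) 3543 to 3956 and 2987 to 3017. Within the chondrocyte sum, Col2a1 (log2 fold change -0.80) and Sox9 (-0.16) were called lower and Col10a1 (0.73) higher, while Matn1 was not called. The part of any of these cell type markers in the KLF results was not tested.

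Corticosterone changed the KLF genes unequally. Klf9 rose about 4-fold, Klf7 rose by 36.6%, Klf10 and Klf4 fell by less than Klf7 rose, and the other 6 genes were not called. Thus 2 of 10 were called higher and 2 of 10 lower. Over all genes tested, 8.49% were called higher and 8.2% lower. The 8 KLF genes other than Klf5 and Klf15 had a mean normalized count of at least 100, and among the 10558 genes at that level 17.1% were called higher and 15.5% lower. At those shares 1 or 2 of 8 genes would be called in each direction, so the number of KLF calls is near the background and is not itself a result about the family. With the added threshold of an absolute log2 fold change over 1, Klf9 was the 1 gene of the 10 that passed, as did 1.38% of all genes upwards and 1.4% downwards. The 3 vehicle and 3 corticosterone values did not overlap for 7 of the 10, higher in 4 (Klf2, Klf3, Klf7, Klf9) and lower in 3 (Klf4, Klf6, Klf10). Without regard to the test, 14.7% of all genes were higher and 14.9% lower in this sense. These shares were not taken at a mean of at least 100, the level of all 7 of these KLF genes. They are thus not a matched background, and the 7 of 10 is not itself a result about the family. The median log2 fold change was 0.08 over the 10 genes and -0.01 over all genes. When every library was scaled to the same total, 1703 genes were called higher and 2521 lower, in place of 2040 and 1970. The exact two-sided permutation test over 3 against 3 libraries cannot give a p below 0.1, which all 7 genes with groups apart reached.

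**Figure D1:**
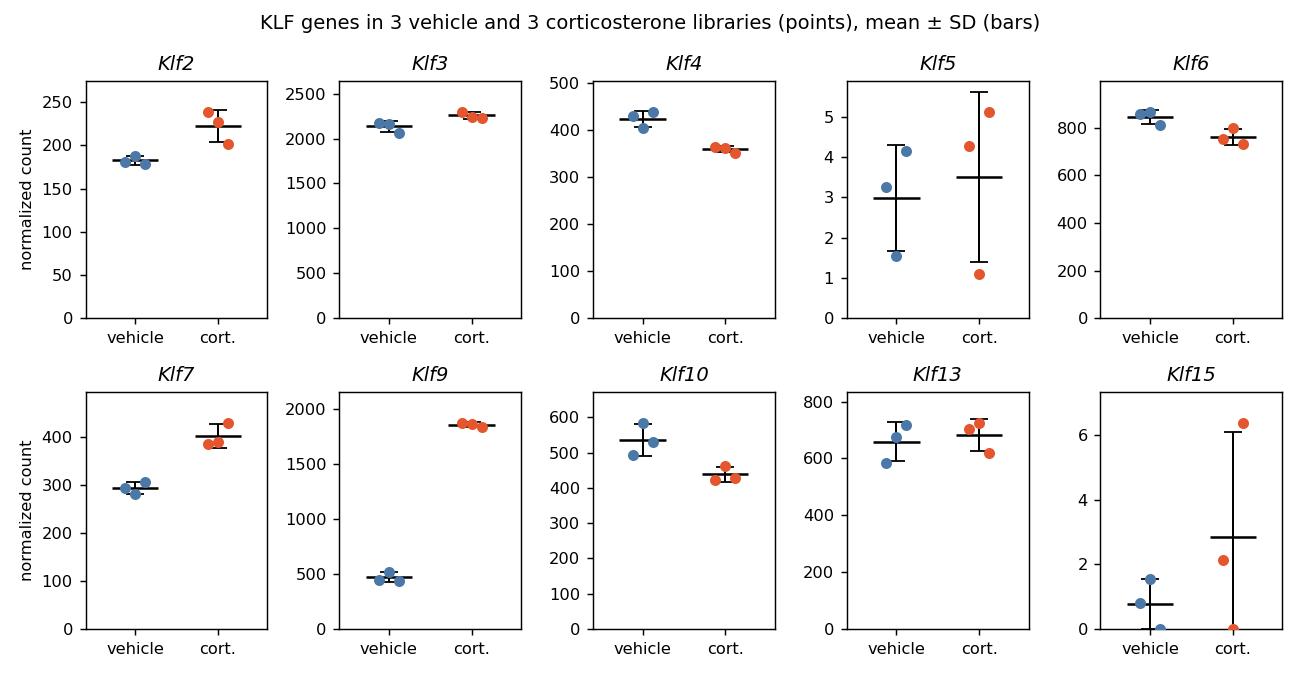
Normalized counts (vertical axes, each starting at 0) of the 10 KLF genes in 3 vehicle and 3 corticosterone (cort.) libraries, 1 point per library, with the mean as a horizontal line and the SD as a bar that is clipped at 0. Klf9 stands apart, from 436 to 523 with vehicle and from 1836 to 1879 with corticosterone, whereas Klf5 and Klf15 lie near 0 in all libraries.

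Among the Sin3A-binding repressors, Klf9 gave the widest difference. Klf9 (ENSMUSG00000033863, chr19:23141226-23168134, plus strand) had normalized counts of 450, 523 and 436 with vehicle and of 1879, 1864 and 1836 with corticosterone. The lowest corticosterone library was thus far above the highest vehicle library, and the libraries within each treatment lay close together. The mean rose from 470 ± 46.3 to 1859.7 ± 22.0 (SD, n = 3 each), a ratio of 3.96. The log2 fold change was 1.99 with a standard error of 0.07 and a 95% confidence interval of 1.85 to 2.13 (limma adjusted p = 3.76e-12). By adjusted p, Klf9 ranked 17 of 24016 genes, and by log2 fold change 26 of the 10558 genes with a mean of at least 100. No exon base of Klf9 overlapped another gene, and none of its 31-base words occurred in another gene's transcripts. In bulk RNA, a larger share of cells with Klf9 and more Klf9 RNA per cell cannot be told apart, which holds for each difference given here.

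Klf10 (ENSMUSG00000037465, chr15:38291463-38300706, minus strand), also called TIEG1, went the other way. Its normalized counts were 495, 585 and 531 with vehicle and 423, 463 and 429 with corticosterone. All corticosterone values were below all vehicle values. The mean fell from 537 ± 45.5 to 438 ± 21.6 (SD, n = 3), a log2 fold change of -0.29 (standard error 0.08, 95% confidence interval -0.45 to -0.13, limma adjusted p = 0.013). The call was lost, with the direction kept, without vehicle replicate 2 (limma adjusted p = 0.071), vehicle replicate 3 (0.088), corticosterone replicate 1 (0.080) or corticosterone replicate 3 (0.090).

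Klf13 (ENSMUSG00000052040, chr7:63886351-63938915, minus strand), an activator of the chemokine gene Ccl5 in T cells, did not pass the test. It had normalized counts of 583, 676 and 717 with vehicle and 703, 726 and 618 with corticosterone, so the groups overlapped. The log2 fold change was 0.05 with a 95% confidence interval of -0.12 to 0.23 (limma adjusted p = 0.74). The intervals of the log2 fold changes of Klf9 and Klf13 did not overlap.

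Of the activators, Klf7 rose. Klf7 (ENSMUSG00000025959, chr1:64029447-64122282, minus strand), known for its role in neurons and in adipocyte precursors, had normalized counts of 294, 282 and 306 with vehicle. With corticosterone it had 385, 390 and 430, all above the vehicle values. The mean rose from 294 ± 12.2 to 402 ± 24.5 (SD, n = 3), a log2 fold change of 0.45 (standard error 0.08, 95% confidence interval 0.28 to 0.62, limma adjusted p = 6.3e-04). In the annotation 39.31% of its exon bases, 3196 of 8131, lie opposite exons of the noncoding gene Gm26649, which was not analysed here. The sources used here do not say whether counting used the strand, so reads of Klf7 and of Gm26649 cannot be told apart there.

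Klf4 fell. Klf4 (ENSMUSG00000003032, chr4:55527143-55532466, minus strand), a factor of epithelial barriers and of reprogramming to pluripotency, had normalized counts of 429, 404 and 439 with vehicle. With corticosterone it had 364, 362 and 352, all below the vehicle values and within a narrow range. The mean fell from 424 ± 17.6 to 359 ± 6.60 (SD, n = 3), a log2 fold change of -0.24 (standard error 0.07, 95% confidence interval -0.39 to -0.08, limma adjusted p = 0.032). The call was lost, with the direction kept, without vehicle replicate 1 (limma adjusted p = 0.086), vehicle replicate 3 (0.11), or corticosterone replicate 1 (0.078), 2 (0.073) or 3 (0.094). DESeq2 on the whole reads gave an adjusted p of 0.096.

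Klf2 (ENSMUSG00000055148, chr8:72319033-72321656, plus strand), a factor that endothelial cells raise under blood flow, is the close relative of Klf4. It had normalized counts of 181, 188 and 179 with vehicle and 239, 228 and 202 with corticosterone. The 3 corticosterone values were all higher than those with vehicle, but more scattered. The log2 fold change of 0.28 (standard error 0.10, 95% confidence interval 0.07 to 0.50) did not pass the adjustment (limma adjusted p = 0.069). It passed without corticosterone replicate 3 (limma adjusted p = 0.046, log2 fold change 0.35) and with edgeR on the whole reads (adjusted p = 0.048). The 95% confidence intervals of Klf2 and Klf4 lay on opposite sides of 0.

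Klf6 (ENSMUSG00000000078, chr13:5861482-5870394, plus strand), known as a tumour suppressor and an injury response gene, had normalized counts of 855, 865 and 809 with vehicle. With corticosterone it had 753, 797 and 730, all lower. The log2 fold change of -0.15 (95% confidence interval -0.28 to -0.02) did not pass (limma adjusted p = 0.11). It passed when all libraries were scaled to the same total (limma adjusted p = 0.038).

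Klf3 (ENSMUSG00000029178, chr5:64803388-64832901, plus strand), the CtBP-binding repressor, had the highest normalized counts of the 10 genes before length was considered. They were 2177, 2164 and 2065 with vehicle and 2295, 2242 and 2231 with corticosterone. The groups did not overlap, but the log2 fold change was 0.08 with a 95% confidence interval of -0.02 to 0.17 (limma adjusted p = 0.29). Of its exon bases, 404 (3.59%) lie opposite the noncoding gene Gm20033, whose normalized count was 82.2 ± 10.6 with vehicle and 75.03 ± 27.3 with corticosterone (SD, n = 3).

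Klf5 and Klf15 were at or near the floor. Klf5 (ENSMUSG00000005148, chr14:99298691-99315036, plus strand), a growth-promoting factor of the gut epithelium, had normalized counts of 3.24, 1.54 and 4.14 with vehicle and 4.28, 1.104 and 5.12 with corticosterone. These were 10 and 9 reads in all, a ratio of 1.2003 per unit of depth with an exact 95% counting interval of 0.43 to 3.29. Klf15 (ENSMUSG00000030087, chr6:90462576-90475238, plus strand), a regulator of amino acid and glucose metabolism in muscle and liver, had 0.811, 1.54 and 0 with vehicle and 2.14, 0 and 6.40 with corticosterone. That is 3 and 7 reads, a ratio of 3.11 with an interval of 0.71 to 18.6, so that a difference was not detectable at this depth. The groups overlapped for both genes, and limma gave adjusted p-values of 0.98 for Klf5 and 0.74 for Klf15.

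Of the KLF genes outside these 10, 3 of 7 were measured. Klf16 had normalized counts of 676, 598 and 614 with vehicle and 464, 547 and 514 with corticosterone, so all values with corticosterone were lower. It fell, with a log2 value of -0.31 ± 0.08 (SE, limma adjusted p = 0.0079). This call was lost without vehicle replicate 1 (limma adjusted p = 0.066) or 3 (0.068) and without corticosterone replicate 1 (0.069) or 3 (0.060). Klf11, a Sin3A-binding relative of Klf10, had 69.7, 57.1 and 52.8 with vehicle and 48.2, 47.5 and 46.1 with corticosterone (log2 fold change -0.33, limma adjusted p = 0.33). Klf1, the erythroid factor, had 7 reads with vehicle and 6 with corticosterone. Klf8, Klf12, Klf14 and Klf17 were not analysed here.

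In the SP family, whose zinc fingers resemble those of the KLF proteins, 7 of 9 genes were measured, none was called higher and 2 were called lower. Over all genes tested, 8.49% were called higher and 8.2% lower. Of these 7 genes 5 had a mean of at least 100, among them Sp7 but not Sp8. At that level 17.1% of genes were called higher and 15.5% lower. The count is thus not itself a result about the family. Sp7, also called osterix, is required for osteoblast formation. It had normalized counts of 593, 662 and 740 with vehicle and of 271, 234 and 281 with corticosterone, with groups far apart. On the log2 scale this was a change of -1.34 ± 0.09 (SE, limma adjusted p = 1.96e-08). Sp8, a limb development factor, had 60.01, 60.97 and 58.96 with vehicle and 31.05, 34.2 and 38.4 with corticosterone (log2 fold change -0.80, limma adjusted p = 0.013). The call of Sp8 was lost without vehicle replicate 3 (limma adjusted p = 0.052). Sp1, Sp2, Sp3 and Sp4, the widely expressed members, had log2 fold changes between -0.10 and 0.11 and did not pass. Sp9 had 3 reads with vehicle and 0 with corticosterone. Sp5 and Sp6 were not analysed here. The median log2 fold change was -0.10 for the 7 SP genes and -0.33 for the 3 other KLF genes, against -0.01 over all genes.

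**Figure D2:**
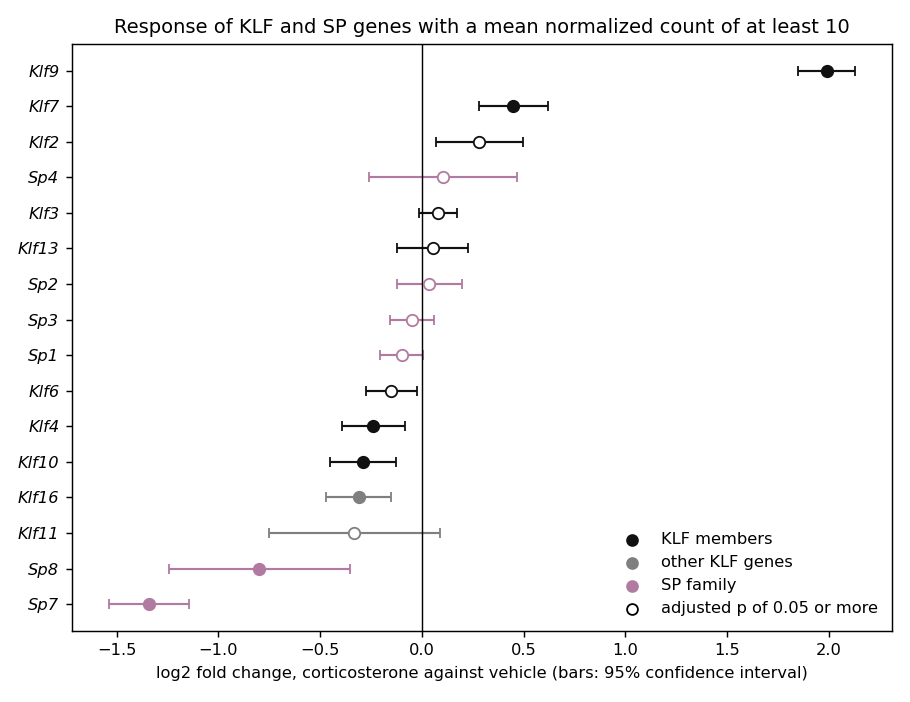
Log2 fold change with corticosterone against vehicle (horizontal axis, limma fit over 3 libraries per treatment) with its 95% confidence interval, for KLF and SP genes with a mean normalized count of at least 10, in order of size. Filled circles have an adjusted p under 0.05: Klf9 at 1.99 and Klf7 at 0.45 lie above 0, while Klf4, Klf10, Klf16, Sp8 and Sp7 lie below, down to -1.34.

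Levels of the 10 KLF genes were compared per kilobase of merged exons. Klf1, Klf11 and Klf16, outside the 10, were left out of this order. Klf16 had a mean normalized count of 630 with vehicle and 508 with corticosterone, over 2674 bases of merged exons. Per base its mean was above those of all 10 genes with vehicle, and between those of Klf3 and Klf6 with corticosterone. With vehicle, Klf6 (192 ± 6.86) and Klf3 (190 ± 5.48) were the highest of the 10 in normalized counts per kilobase (SD, n = 3), and their library values overlapped. They were followed by Klf4 (139 ± 5.77) and Klf10 (128 ± 10.9), which overlapped each other but not the genes above or below. Klf2 (98.9 ± 2.69), Klf9 (97.5 ± 9.61) and Klf13 (87.5 ± 9.11) came next, and neighbours in this order overlapped. Klf7 was lower, at 36.2 ± 1.504, and Klf5 and Klf15 were under 1.

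With corticosterone, Klf9 moved from the sixth to the first place among the 10 genes, with 386 ± 4.56 normalized counts per kilobase (SD, n = 3). Klf3 (201 ± 3.06) and Klf6 (173 ± 7.77) followed, each apart from its neighbours. Klf2 (121 ± 10.2) and Klf4 (118 ± 2.17) overlapped, then came Klf10 (105 ± 5.16), Klf13 (90.6 ± 7.55) and Klf7 (49.4 ± 3.01), all apart. The first place depended on the length used. Per kilobase of the longest transcript, Klf3 was first with both treatments and Klf9 went from the fifth place (105 ± 10.3) to the second (415 ± 4.90).

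The sum over the 10 genes rose from 970 ± 24.1 to 1245 ± 29.2 normalized counts per kilobase of merged exons (SD, n = 3), a ratio of 1.28. Without Klf9 it was 873 ± 15.1 and 859 ± 25.2, a ratio of 0.984. The share of Klf9 in the sum was 10.0% ± 0.744 with vehicle and 31.03% ± 0.435 with corticosterone. With the longest transcript as the length, this share was 8.23% and 26.4%. The increase in the sum over these 10 genes was thus that of Klf9. Klf1, Klf11 and Klf16 were not in the sum, so it is not a total for the whole family.

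**Figure D3:**
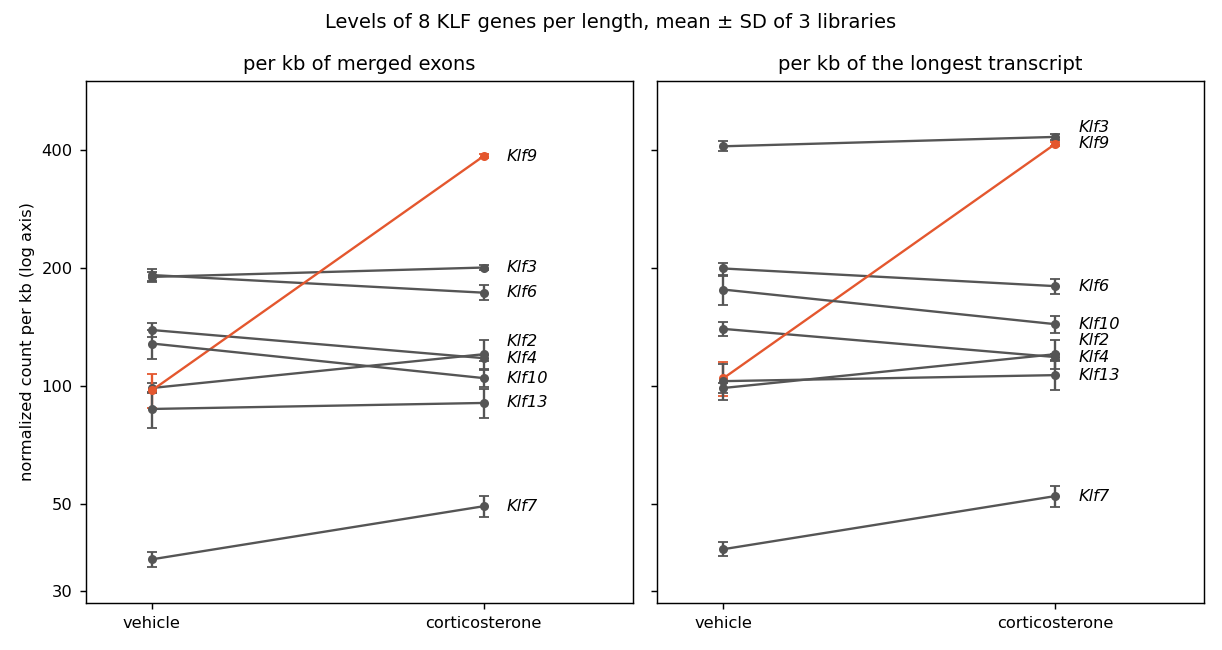
Normalized count per kilobase (vertical log axis) of the 8 genes above the floor among the 10 KLF genes, with vehicle and with corticosterone, as mean ± SD of 3 libraries, divided by the length of merged exons (left) or of the longest transcript (right). Klf9, in orange, goes from 97.5 to 386 on the left and from 105 to 415 on the right, and is above Klf3 with corticosterone on the left only.

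The proteins that carry out or limit KLF action were read from a list of 13 corepressors, coactivators and ubiquitin ligase components, all measured. The coactivator p300 gene Ep300 rose and 2 genes fell. All 13 had a mean of at least 100, where 17.1% of genes were called higher and 15.5% lower, so the counts do not exceed the background. Ep300 had normalized counts of 1894, 1858 and 1867 with vehicle and 2575, 2655 and 2693 with corticosterone (log2 fold change 0.50, limma adjusted p = 3.67e-07). The deacetylase gene Hdac2 had a log2 fold change of -0.26 (limma adjusted p = 7.7e-04), and the scaffold gene Sin3b one of -0.18 (limma adjusted p = 0.022). The call of Sin3b was lost without vehicle replicate 2 (limma adjusted p = 0.058) or 3 (0.12) and without corticosterone replicate 2 (0.11) or 3 (0.079). Sin3a, whose protein binds KLF9, KLF10 and KLF13, had a log2 fold change of -0.16 that did not pass (limma adjusted p = 0.074). It passed without vehicle replicate 1 (limma adjusted p = 0.039). Sap30 passed without vehicle replicate 2 (limma adjusted p = 0.0498, log2 fold change -0.43). The KLF3 partner genes Ctbp1 and Ctbp2 had log2 fold changes of -0.06 and -0.05, neither called. The median over the 13 genes was -0.05.

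Klf2 and Klf4 are known to be induced through the kinase ERK5 and MEF2 factors, and held back by the cerebral cavernous malformation (CCM) proteins, which act with the membrane protein HEG1. All 11 genes of that list were measured, 2 were called higher and 2 lower, with a median log2 fold change of -0.07. All 11 had a mean of at least 100, where 17.1% of genes were called higher and 15.5% lower, so the counts are at the background. Heg1 had normalized counts of 2433, 2179 and 2358 with vehicle and 4877, 4415 and 4750 with corticosterone. It rose by 1.01 ± 0.05 on the log2 scale (SE, limma adjusted p = 5.53e-10). Krit1, the gene of the CCM protein that binds HEG1, rose by 0.26 on the log2 scale (limma adjusted p = 0.0013). Mef2c had normalized counts of 169, 192 and 221 with vehicle and 163, 140 and 132 with corticosterone, with a log2 fold change of -0.42 (limma adjusted p = 0.028). Mapk7, the ERK5 gene, had one of -0.20 (limma adjusted p = 0.020).

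Both lower calls were lost when single libraries were left out. For Mef2c the limma adjusted p was 0.087 without vehicle replicate 2, 0.19 without vehicle replicate 3, 0.11 without corticosterone replicate 2 and 0.16 without corticosterone replicate 3. For Mapk7 it was 0.091 without vehicle replicate 1, 0.073 without vehicle replicate 3, and 0.059, 0.085 and 0.071 without corticosterone replicates 1, 2 and 3. Mef2d, at 0.11 and not called, passed without vehicle replicate 2 (limma adjusted p = 0.042). With the replicate number as a block, Mef2c also lost its call, so that 1 gene of the list was called lower.

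Of 20 genes known to lie downstream of a KLF in other tissues, 19 were measured (Slc2a4 was not analysed here), 5 were called higher and 6 lower, with a median log2 fold change of -0.07. The share of all genes called was 8.49% higher and 8.2% lower, and 17.1% and 15.5% at a mean of at least 100, the level of 14 of these 19. The list was chosen with results of these data known, so its counts are a description. Of the listed targets of KLF2 in endothelium, Thbd and S1pr1 fell and Vcam1 rose. Thbd, the gene of the anticoagulant receptor thrombomodulin, had normalized counts of 5911, 6868 and 6486 with vehicle and 4521, 4594 and 4650 with corticosterone, a log2 fold change of -0.48 (limma adjusted p = 2.05e-06). The sphingosine-1-phosphate receptor gene S1pr1 had a log2 fold change of -0.18 (limma adjusted p = 0.0054). The adhesion molecule gene Vcam1, which KLF2 represses, rose by 0.39 on the log2 scale (limma adjusted p = 5.45e-06). Nos3 (log2 fold change -0.67, limma adjusted p = 0.35) and Edn1 (1.08, limma adjusted p = 0.12) did not pass. The part of Klf2 in these differences was not tested.

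The cyclin-dependent kinase inhibitor gene Cdkn1a, a target of KLF4 and KLF6, fell with a log2 fold change of -0.37 (limma adjusted p = 6.3e-04). Tgfb1, a target of KLF6, had a log2 fold change of -0.29 (limma adjusted p = 0.0025), and lost its call without vehicle replicate 3 (limma adjusted p = 0.053). The urokinase gene Plau had normalized counts of 212, 203 and 214 with vehicle and 115, 124 and 150 with corticosterone, a log2 fold change of -0.71 (limma adjusted p = 3.84e-04). Eng, the gene of the co-receptor endoglin, had 51.1, 67.9 and 70.3 with vehicle and 121, 106 and 74.2 with corticosterone, a log2 fold change of 0.65 (limma adjusted p = 0.032). Its call was lost without vehicle replicate 1 (limma adjusted p = 0.17), 2 (0.073) or 3 (0.11) and without corticosterone replicate 1 (0.19) or 2 (0.14), as well as with the replicate number as a block (0.057), a pseudocount of 0.01 (0.053) or no variance trend (0.23).

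Smad7, an inhibitor of transforming growth factor β signalling linked to KLF10, rose by 0.39 on the log2 scale (limma adjusted p = 8.83e-04). Tnfrsf11b, the gene of osteoprotegerin, which limits osteoclast formation, had normalized counts of 225, 312 and 275 with vehicle and 146, 115 and 124 with corticosterone. Its groups were apart, with a log2 fold change of -1.07 (limma adjusted p = 1.28e-05). Lgals3, the galectin-3 gene linked to KLF3, rose by 0.74 (limma adjusted p = 1.63e-09).

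The muscle ubiquitin ligase gene Trim63, linked to KLF15, had normalized counts of 30.003, 40.9 and 32.1 with vehicle and 246, 217 and 257 with corticosterone. This rise of 2.81 ± 0.16 on the log2 scale (SE, limma adjusted p = 2.13e-09) stood beside a Klf15 at the floor. Fbxo32, Bcat2 and Prodh, the other genes of this list linked to KLF15, were not called. The part of KLF15 in the values of these genes and of Trim63 was not tested. Of the remaining genes of the list, Ccnd1, Pdgfa and Ccl5 had log2 fold changes between -0.07 and 0.18 and did not pass.

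Values across the 6 libraries were compared with those of Klf9 by Pearson correlation, on the log2 scale used for the test. Among the 10558 genes with a mean of at least 100, those most like Klf9 were Dysf, Ccn2, Rasa3, Adarb1 and Ctsb. Their correlations ran from 0.99911 to 0.99987. Since the libraries fall into 2 treatments, the coefficient mostly restates the difference between them: 1446 of 10557 genes reached over 0.9 and 210 over 0.99. The genes differed in size of change. The log2 fold change was 1.54 for Ccn2, a secreted matricellular protein gene, 1.38 for the RNA-editing enzyme gene Adarb1, 1.08 for Rasa3, 0.81 for Dysf and 0.48 for Ctsb, against 1.99 for Klf9. Per1, a clock gene and known glucocorticoid target, had a log2 fold change of 2.02, close in size to that of Klf9.

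**Figure D4:**
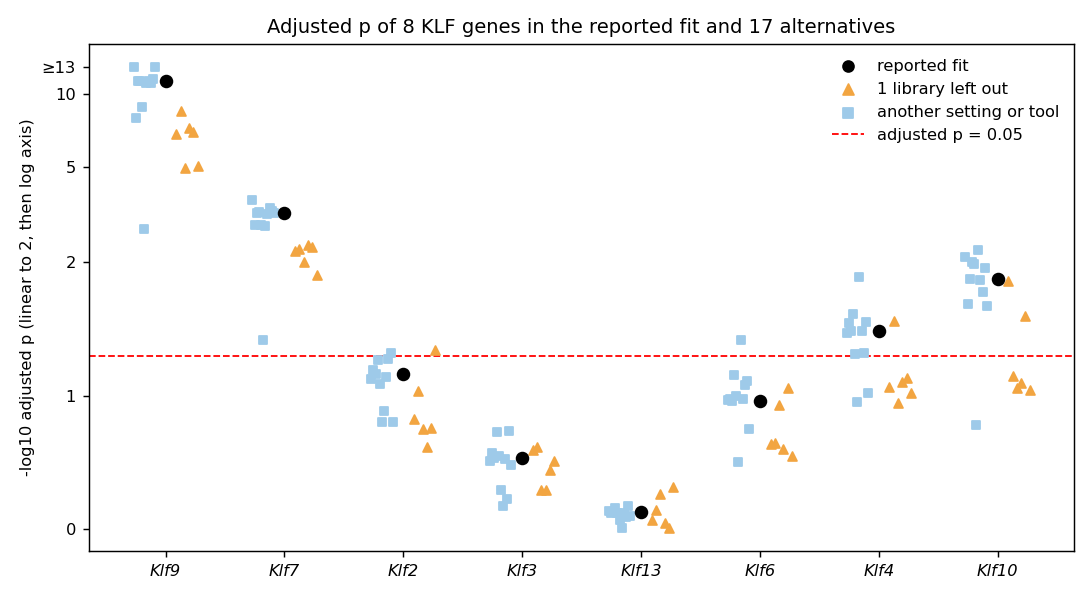
Minus log10 of the adjusted p (vertical axis, linear up to 2 and logarithmic above, with values over 13 drawn at 13) of 8 KLF genes in the reported fit (black), with 1 library left out (orange triangles) and with other settings or tools (blue squares). Klf9 and Klf7 stay above the dashed line at an adjusted p of 0.05 in all 17 alternatives, whereas Klf4, Klf10, Klf2 and Klf6 lie on both sides of it.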

How the data were processed

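RNA was sequenced from 6 cultures of differentiated MC3T3-E1 cells, 3 per treatment, after library preparation with the NEBNext Ultra RNA kit. Sequencing was commercial, on an Illumina platform, and the study's own test was DESeq2. The submitters' processing notes name the build mm10. The aligner, the counter and the use of strand are not given in the sources used here. The deposited table is named FPKM, but its values are a signal that the authors made by dividing the read counts by 1 size factor per library. Every value in each library was a whole multiple of 1 step (100% within 0.01 of a whole read), whatever the gene length. Of 24016 gene identifiers, 24008 had a symbol in GENCODE M21 (GRCm38), and the symbols, positions and lengths were taken from it.

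The test was limma 3.58.1 in R 4.3.3 (lmFit, and eBayes with a variance trend) on log2(value + 0.1), two-sided. A minimum mean of 0.1 removed no gene, the lowest mean being 0.257. For genes with a few reads, fold changes on this scale depend on the pseudocount and can differ in size and sign from the ratio of the means. The alternatives were pseudocounts of 1 and 0.01, no filter, a mean of at least 10, the replicate number as a block, no variance trend, scaling to the same total, upper-quartile scaling, quantile normalization, leaving out each library in turn, and edgeR 4.0.16 (quasi-likelihood test, TMM) or DESeq2 1.42.0 on the whole reads. The fits were tested on simulated data. Libraries of the same treatment differed beyond counting error (chi-square per degree of freedom of at least 3.46), so each was kept as a replicate.

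The 10 genes and the lists were chosen with earlier results of these data known. The genes named are the 10 KLF genes, the genes of the lists, with values for the called ones first, and the 5 genes most correlated with Klf9. The genes downstream of a KLF do not include 1 gene of the original list, which is not reported here. No adjustment was made over a list alone.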

Additional observations from a re-analysis of the deposited data

How the results depend on the processing

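Klf9 (log2 fold change 1.94 to 2.07) and Klf7 (0.40 to 0.48) were called in all 17 alternatives. With no variance trend the limma adjusted p was 0.0017 for Klf9 and 0.038 for Klf7. The number of KLF genes called lower, 2 as reported, was 0 with no variance trend, 1 with DESeq2 on the whole reads, and 0 to 1 with a library left out. With no variance trend, 873 genes in all were called higher and 760 lower, against 2040 and 1970. With a library left out these were 1419 to 1873 and 1148 to 1611, the lowest being without vehicle replicate 3. For the other KLF genes, 0 were called lower with no variance trend and 0 to 1 with a library left out, and for the SP family 1 to 2 were. Of the corepressors and coactivators, 0 were called lower with no variance trend, 5 with scaling to the same total and 1 to 3 with a library left out. Of the ERK5, MEF2 and CCM genes, 1 was called higher with no variance trend. Those called lower were 1 with the replicate block, 0 with no variance trend, 4 with scaling to the same total, 1 with DESeq2 and 0 to 1 with a library left out. Of the genes downstream of a KLF, 3 were called higher and 3 lower with no variance trend. The cause of these differences was not tested.

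Signs changed only for genes that were not called. With a library left out the log2 fold change was -0.32 to 0.74 for Klf5, -0.032 to 0.12 for Klf13, -0.17 to 2.85 for Klf15, -2.44 to 0.47 for Klf1, -0.022 to 0.080 for Sp2, -0.094 to 0.28 for Sp4, -0.105 to 0.0059 for Ctbp2, -0.055 to 0.067 for Crebbp and -0.59 to 0.11 for Prodh. With scaling to the same total it was -0.0049 for Sp2. The labels number the replicates 1 to 3 in both groups without saying that the numbers pair the cultures. Same-numbered libraries deviated from their group means with correlations of -0.044, 0.001 and 0.023 over 13880 genes, so the numbers were not taken as pairs. With the replicate block, no call of the 10 KLF genes changed, while among the other listed genes Mef2c (adjusted p = 0.055) and Eng (0.057) lost theirs. The depth limits Klf5 and Klf15, which had at most 5 reads in any library.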
